A study of Mus musculus with 2 samples.

Results

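The Mir322-Mir503 cluster is a run of microRNA genes on the mouse X chromosome, taken here as the 7 genes whose GENCODE M21 symbol is Mir322, Mir503, Mir351, Mir542, Mir450-1, Mir450-2 or Mir450b. All 7 were among the 2202 microRNA genes counted. The data are small RNA sequencing counts from the gastrocnemius, a calf muscle, of 14-day-old female B6CASTF1/J mice, which are F1 hybrids of the strains C57BL/6J and CAST/EiJ. There was 1 group with 2 biological replicates and no treatment, other tissue or other age, so the study holds no contrast between conditions. The biosample of replicate 1 refers to 3 females and both biosamples carry one donor identifier, so the spread between these samples may be partly technical.

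MicroRNAs are cut from hairpin precursors, 1 mature strand from each arm, and a mature strand pairs with messenger RNAs mainly through its seed, bases 2 to 8. Genes that lie close together on one strand are often carried by one primary transcript, from which each hairpin is processed separately. In myoblasts, miR-322 (the mouse counterpart of human miR-424) and miR-503 are known to increase as cells leave the cell cycle and to lower Cdc25A, a phosphatase that drives cell division. The RNA here came from whole muscle, so the cell of origin of a read is not known, and more cells of a type cannot be told apart from more RNA per cell.

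The mature strands show which members share a seed and which can share reads. The RefSeq sequences (GRCm38.p6) of all 7 genes matched by symbol and are given 5′ to 3′ in the order of transcription, with the seed in capitals.
miR-322-5p: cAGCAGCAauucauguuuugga
miR-322-3p: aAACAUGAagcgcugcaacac
miR-503-5p: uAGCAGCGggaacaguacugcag
miR-351-5p: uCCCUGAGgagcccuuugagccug
miR-542-3p: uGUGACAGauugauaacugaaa
miR-450a-5p: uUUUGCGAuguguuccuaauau
miR-450a-1-3p: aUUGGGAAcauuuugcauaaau
miR-450b-5p: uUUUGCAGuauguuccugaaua
miR-450b-3p: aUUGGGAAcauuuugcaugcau

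The 7 hairpins gave 14 arms, 13 distinct mature strands and 12 distinct seeds. The 5p strands of miR-322 and miR-503 differed within the seed only by A8G, counted from 1 at the 5′ end of miR-322-5p. The only seed shared between different mature strands of the cluster was that of miR-450a-1-3p and miR-450b-3p. Outside the cluster, the seed of miR-322-5p occurred in 9 of 1679 named RefSeq mature strands, which include those of the Mir15 and Mir16 genes, Mir195a and Mir497. The seed of miR-351-5p occurred in 4 others, among them miR-125a-5p and miR-125b-5p. No mature strand outside the cluster had the seed of miR-503-5p or of miR-542-3p.

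Mir450-1 and Mir450-2 both encode miR-450a-5p, so their hairpins are shown with the 25 nt that they share in capitals, and Mir450b with the 19 nt that it shares with Mir450-1.
Mir450-2: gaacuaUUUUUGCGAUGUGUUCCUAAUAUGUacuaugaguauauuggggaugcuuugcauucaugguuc
Mir450-1: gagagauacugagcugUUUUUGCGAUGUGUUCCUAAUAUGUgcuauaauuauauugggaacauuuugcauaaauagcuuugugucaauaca
Mir450b: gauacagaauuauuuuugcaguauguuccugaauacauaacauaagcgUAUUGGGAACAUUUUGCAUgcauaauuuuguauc

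The stretch shared by Mir450-1 and Mir450-2 covers the whole of miR-450a-5p, so a read of that strand fits both hairpins. In count files of this layout, a read with several alignments is added to no gene, which makes the counts of Mir450-1 and Mir450-2 lower bounds. The other 4 members shared no stretch longer than 13 nt with any of the other annotated microRNA hairpins on either strand, shorter than a mature strand. Each of their mature strands matched exactly 1 hairpin.

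The cluster covered 6.353 kb of the minus strand of the X chromosome, from 53047997 to 53054349 (mm10). In the direction of transcription Mir322 came first (53054255 to 53054349), followed after 200 bases by Mir503 (53053984 to 53054054) and after another 630 bases by Mir351 (53053255 to 53053353). A gap of 3767 bases, in which the long noncoding gene Gm28730 is annotated, separated Mir351 from Mir542 (53049403 to 53049487). Mir450-2 (53048299 to 53048367), Mir450-1 (53048154 to 53048244) and Mir450b (53047997 to 53048078) formed the 3′ end, separated by 54 and 75 bases. No other annotated gene overlapped any of the 7 hairpins, so none is exonic or intronic in GENCODE M21. The noncoding gene C430049B03Rik ended 696 bases upstream of Mir322 on the same strand, and the nearest protein-coding genes were Plac1, 15645 bases upstream, and Hprt, 26337 bases downstream.

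Library totals were 2672454 reads assigned to microRNA genes in replicate 1 and 4292012 in replicate 2, and levels are read counts scaled to these totals (CPM, the usual per-library unit), where 1 read was worth 0.374 and 0.233 CPM. Another 52.7% and 52.4% of the listed reads had several alignments and were outside these totals. The muscle marker Mir206 stood at 95105 and 84695 CPM. Of 12 annotated striated muscle genes 9 were expressed (1 CPM or more in both libraries), beside 16.7% of all microRNA genes. Their sum was 96337 and 85891 CPM, so Mir206 made up nearly all of it. The other muscle genes were far lower, such as Mir486 at 643 and 538 CPM and Mir1a-2 at 245 and 170 CPM. Among markers of other cells, the summed endothelial list stood at 118725 and 119268 CPM, fibroblast and smooth muscle at 24310 and 25430, leukocyte at 1855 and 1347, erythroid at 437 and 185, and hepatocyte (Mir122) at 229 and 14.2. The neuronal list had no read in replicate 1 and 0.932 CPM in replicate 2, with the 3 Mir124a genes at 0 in both. Mir133c, Mir451b, Mir142b, Mir199a-1 and Mir145b were also at 0. The neuronal list and part of the muscle list hold numbered copies of a microRNA, such as Mir124a-1 and Mir124a-2. A read that fits several copies would enter no gene's count, so low counts of such genes do not show that a cell type is absent.

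All 7 members reached 1 CPM in both libraries, the level taken as expressed, as did 16.7% of all microRNA genes. Together they held 1.29% of microRNA reads in replicate 1 (exact binomial 95% bounds 1.28 and 1.31) and 1.59% in replicate 2 (bounds 1.58 and 1.60). These and all later intervals cover counting error only and treat each read as independent. No molecular identifiers are named, so reads copied from one molecule cannot be told apart. Most of the members' share came from Mir322 and Mir351, while Mir450-1 and Mir450-2 each gave at most 0.119% of the cluster's assigned reads. Reads of miR-450a-5p are left out of all these shares, so 0.119% is no upper limit for these 2 genes.

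Mir322, the first hairpin, had 23176 reads (8672 CPM) in replicate 1 and 44410 reads (10347 CPM) in replicate 2, a mean of 9510 ± 1184 CPM (SD, n = 2). It ranked 21st of the 2202 genes by mean level, and replicate 2 was the higher library. The genes nearest to Mir322 in log2(CPM + 1) over the 2 libraries were Mir30d, Mir541 and Mirlet7d, none of them X-linked. Over only 2 libraries this is no more than closeness of level.

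Mir503, 200 bases further on, had 592 reads (222 CPM) in replicate 1 and 1051 reads (245 CPM) in replicate 2, a mean of 233 ± 16.5 CPM (SD, n = 2). It ranked 131st and its libraries lay close together. Within a library there were 39.1 Mir322 reads for each Mir503 read in replicate 1 and 42.3 in replicate 2. The change in this read ratio between the libraries was 1.08-fold with a 95% interval of 0.975 to 1.195. The most 5′ pair of hairpins, neighbours with nearly the same 5p seed, thus differed in level by a factor that was close in both libraries.

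miR-351 carries the seed of miR-125 and is known to act on the cell cycle factor E2f3 in muscle progenitors. Mir351 had 7719 reads (2888 CPM) in replicate 1 and 18651 reads (4346 CPM) in replicate 2, a mean of 3617 ± 1030 CPM (SD, n = 2). Replicate 2 stood well above replicate 1. It ranked 44th, and its nearest genes in level were Mir381 and Mir540 on chromosome 12 and Mir483 on chromosome 7. Mir542, after the long gap, had 2536 reads (949 CPM) in replicate 1 and 3258 reads (759 CPM) in replicate 2, a mean of 854 ± 134 CPM (SD, n = 2). Here replicate 1 was the higher library, the reverse of Mir351. Mir542 encodes miR-542-3p, known for binding the message of the survival factor Birc5 (survivin).

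At the 3′ end, Mir450b had 444 reads (166 CPM) in replicate 1 and 745 reads (174 CPM) in replicate 2, a mean of 170 ± 5.26 CPM (SD, n = 2). The 2 values nearly coincided. Mir450-1 had 37 reads (13.8 CPM) and 81 reads (18.9 CPM), and Mir450-2 had 27 reads in both libraries (10.1 and 6.29 CPM). Both lay far below Mir450b, which is 75 bases from Mir450-1, but their counts leave out the reads of the shared miR-450a-5p, so their true place in the order is not known. The reads counted for these genes can come from the 3p arms, whose sequences differ, and arms are pooled in each gene's count.

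**Figure D1:**
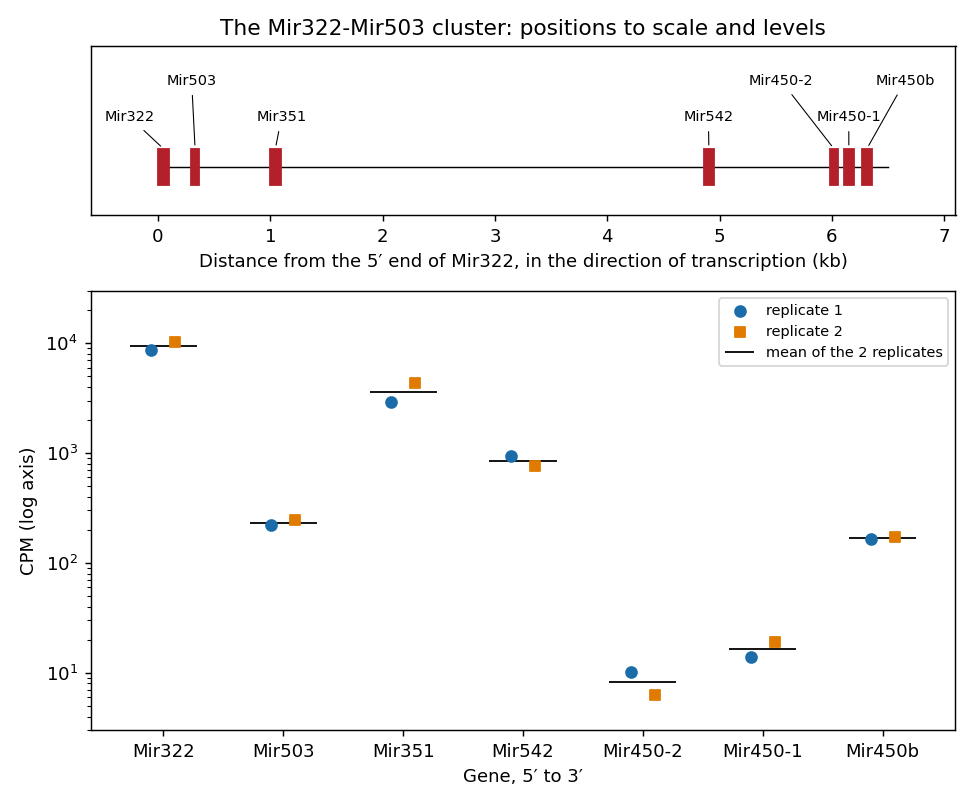
Upper panel: the 7 hairpins drawn to scale by distance from the 5′ end of Mir322 (kb). Lower panel: CPM on a log axis for each gene in the same order, with a circle for replicate 1, a square for replicate 2 and a line for the mean. Mir322 is highest at 9510 CPM and Mir503 beside it stands at 233 CPM. Mir450-1 and Mir450-2 are lower bounds.

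By mean level the order was Mir322, Mir351, Mir542, Mir503, Mir450b, Mir450-1 and Mir450-2. Mir322, Mir351, Mir542 and Mir450b fell in level from 5′ to 3′, while Mir503, the second hairpin, stood below Mir351 and Mir542. No neighbouring pair in the order by level overlapped in its replicate ranges. In replicate 1, however, the counting intervals of Mir450-1 (9.75 to 19.1 CPM) and Mir450-2 (6.66 to 14.7 CPM) overlapped. Both counts are lower bounds, so the places of these 2 genes are not known. The closest well-counted pair was Mir503 over Mir450b, 1.37-fold apart in mean CPM. Mir322 exceeded Mir351 by 2.63-fold, Mir351 exceeded Mir542 by 4.24-fold, and Mir542 exceeded Mir503 by 3.66-fold in mean CPM. A small RNA read is a whole mature strand, so CPM was not divided by hairpin length, and dividing by it left all 7 members in the same order. From Mir322 to Mir450-2 the mean CPM spanned 1160-fold, an upper limit because the count of Mir450-2 is a lower bound. For each read of Mir450b, the lowest member with no fully shared mature strand, there were 52.2 reads of Mir322 in replicate 1 and 59.6 in replicate 2.

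The hairpins themselves fell into separate ranges of base composition. GC content was 50.5% to 54.9% in Mir322, Mir503, Mir351 and Mir542 and 30.5% to 36.2% in the 3 Mir450 genes. The quartiles over all 2202 hairpins were 42.9% and 57.9%. Predicted folding energy (RNAfold minimum free energy) ran from -42.9 kcal/mol for Mir322 to -26.5 for Mir450-2, with Mir503 at -37.6, Mir351 at -37.3 and Mir542 at -38.1. These energies were not scaled for hairpin length, which was 71 nt for Mir503 and 99 nt for Mir351, with levels of 233 and 3617 CPM. Mir450-1, whose count is a lower bound, had -41.0 kcal/mol. A link between folding energy and level was not tested.

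Between the libraries the members' ratios ran in both directions. For the 6 members that averaged at least 10 CPM, the 95% counting interval of the ratio of replicate 2 over replicate 1 lay above 1 for 2 and below 1 for 1. Over all 260 genes at that level it lay above 1 for 33.1% and below 1 for 25.8%, so these counts are near the background of the 2 libraries. Mir450-2, at a mean of 8.20 CPM, did not pass this limit.

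The 2 members above 1 were Mir351, at 1.50-fold (95% counting interval 1.47 to 1.55), and Mir322, at 1.19-fold (1.17 to 1.21). Mir542 was lower in replicate 2, with a ratio of 0.800 (0.759 to 0.843). Mir503 had a ratio of 1.11 (0.999 to 1.22), Mir450b of 1.04 (0.928 to 1.18) and Mir450-1 of 1.36 (0.913 to 2.07), and these intervals included 1. With a single library on each side the ratios compare libraries, not animals, and no p-value was computed.

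On the log2 scale the median ratio of the 6 members was 0.20, beside 0.04 for all 260 genes. Among the 176 genes that averaged at least 100 CPM, 13 differed more between the libraries than Mir351, 41 more than Mir542 and 58 more than Mir322. Mir351 therefore stood toward the edge of the replicate spread, and Mir322, Mir503 (104 of 176 more different) and Mir450b (144 of 176) lay inside it. The erythroid, leukocyte and hepatocyte marker sums were lower in replicate 2, at 0.424, 0.726 and 0.0621 times replicate 1. Of the leukocyte genes Mir155, Mir150, Mir146 and Mir142 were lower by their intervals, while Mir223 had a ratio of 1.03 (0.898 to 1.19). The fibroblast and smooth muscle sum, led by Mir143, was 1.05 times replicate 1. The muscle sum, nearly all Mir206, was 0.892 times replicate 1. By their intervals Mir206, Mir486 and Mir1a-2 were lower in replicate 2, and Mir499 and Mir208b were higher. The part of these cells in the members' ratios was not tested.

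**Figure D2:**
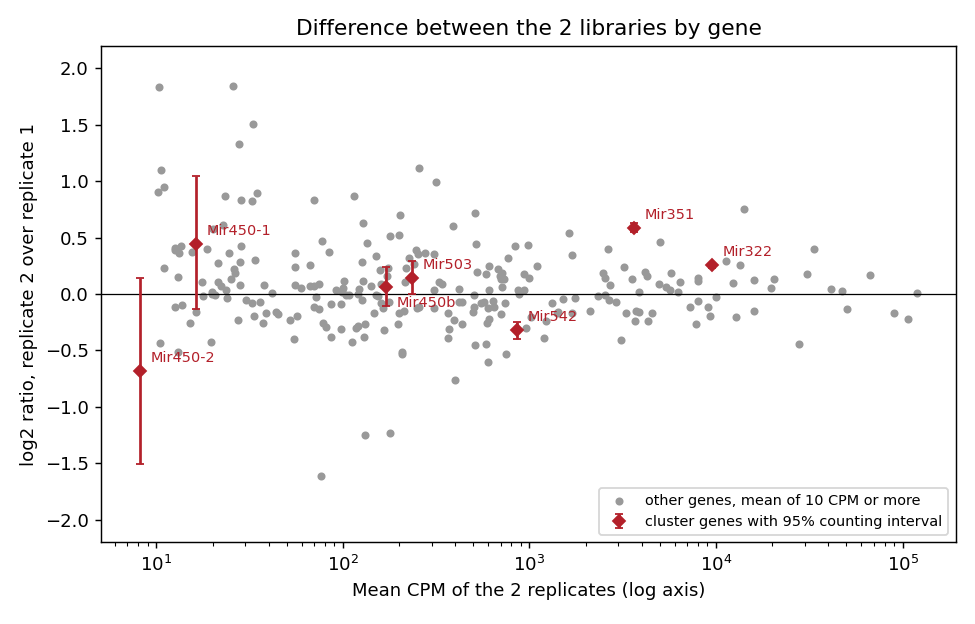
The x axis is the mean CPM of the 2 replicates (log axis) and the y axis the log2 ratio of replicate 2 over replicate 1. Grey points are the other genes that averaged at least 10 CPM, of which 1 (Mir122, at -4.01) lies outside the axis. Red diamonds are the 7 cluster genes with 95% counting intervals, with Mir351 at 0.59, Mir322 at 0.25 and Mir542 at -0.32.

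Shares within the cluster do not depend on the library total, but they leave out the reads of miR-450a-5p. Placing those reads would lower the shares of the members other than Mir450-1 and Mir450-2. Mir322 gave 67.1% of the cluster's reads in replicate 1 (exact binomial 95% bounds 66.6 and 67.6) and 65.1% in replicate 2 (bounds 64.7 and 65.5), so it led in both and its share was slightly smaller in replicate 2. Mir351 made up 22.4% (21.9 to 22.8) in replicate 1 and 27.3% (27.0 to 27.7) in replicate 2, a larger share in the second library. Mir542 made up 7.34% (7.07 to 7.62) and 4.78% (4.62 to 4.94). The remaining assigned reads were mostly those of Mir503 (1.71% and 1.54%) and Mir450b (1.29% and 1.09%).

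The read ratio of Mir351 to Mir542 was 3.04 in replicate 1 and 5.72 in replicate 2, a change of 1.88-fold (95% interval 1.77 to 1.99). For Mir322 to Mir351 the read ratio was 3.00 in replicate 1 and 2.38 in replicate 2. Of the 21 pairs of members, 13 had a change in read ratio whose interval excluded 1, counting error alone considered and not adjusted for the number of pairs. Among the 6 members that averaged at least 10 CPM it was 9 of 15 pairs, beside 53.8% of the 33670 pairs of all 260 genes at that level. The members' count is near that background of the libraries.

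MicroRNAs with one seed have overlapping predicted targets, so Mir322 and Mir351 were set beside the genes known to share their 5p seeds. The expressed relatives carry these 5p strands, shown with the seed in capitals.
miR-195a-5p: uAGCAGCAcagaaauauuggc
miR-15a-5p: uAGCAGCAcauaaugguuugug
miR-15b-5p: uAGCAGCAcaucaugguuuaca
miR-497a-5p: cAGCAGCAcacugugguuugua
miR-16-5p: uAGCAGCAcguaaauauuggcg
miR-125a-5p: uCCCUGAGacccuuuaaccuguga
miR-125b-5p: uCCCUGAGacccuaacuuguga

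The Mir15, Mir16, Mir195 and Mir497 genes are known to restrain the cell cycle. Mir195a, the highest of them, stood at 8142 CPM in replicate 1 and 7785 in replicate 2. Mir322 was above it in both libraries, by less in replicate 1 than in replicate 2. Mir15a (1489 and 1325 CPM), Mir15b (1091 and 950), Mir497 (889 and 616), Mir16-1 (587 and 558) and Mir16-2 (155 and 165) were all lower. Mir195b had no read, which allows, taking 3 reads as the limit, up to 1.12 CPM in replicate 1 and 0.699 CPM in replicate 2. Mir16-1 and Mir16-2 share 23 nt and both encode miR-16-5p, so their counts are lower bounds.

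Of the reads assigned to this set of 9 genes, Mir322 held 41.2% (exact binomial 95% bounds 40.8 and 41.7) in the first library and 47.6% (bounds 47.3 and 47.9) in the second, a mean of 44.4% ± 4.48 (SD, n = 2). The set includes Mir497b, on the opposite strand of Mir497, which has another seed and no read. Placing the reads of miR-16-5p would lower the share of Mir322. Among the 6 relatives tested, 4 (Mir195a, Mir15a, Mir15b and Mir497) were lower in replicate 2 by their intervals and none was higher, beside 25.8% lower and 33.1% higher among all 260 genes. The sum of the relatives had a ratio of 0.923 (0.910 to 0.936), so the set without Mir322 and Mir322 itself stood on opposite sides of 1.

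Mir125a, a vertebrate counterpart of the worm timing gene lin-4, stood at 3818 CPM in replicate 1 and 3878 in replicate 2. Mir351 lay below it in replicate 1 and above it in replicate 2, so the 2 genes could not be ordered. Mir125b-1 (331 and 351 CPM) and Mir125b-2 (104 and 103 CPM) share 24 nt with each other, so both are lower bounds. Mir351 held 40.4% (39.8 to 41.1) of the reads of these 4 genes in replicate 1 and 50.1% (49.6 to 50.6) in replicate 2. Placing the reads of miR-125b-5p would lower these shares. The 3 relatives together had a ratio of 1.02 (0.995 to 1.04) between the libraries, beside 1.50 for Mir351.

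**Figure D3:**
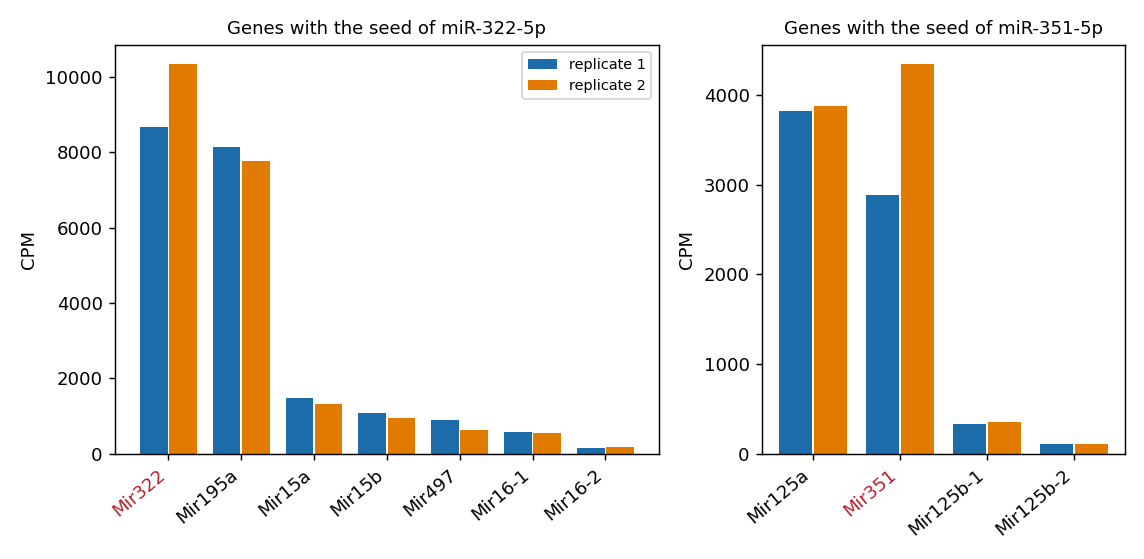
Bars show CPM (axis from 0) in replicate 1 and replicate 2 for genes with reads that share the 5p seed of miR-322 (left) or of miR-351 (right). Mir322 exceeds Mir195a in both libraries, while Mir351 is below Mir125a in replicate 1 (2888 against 3818 CPM) and above it in replicate 2 (4346 against 3878 CPM).

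On the X chromosome 142 microRNA genes are annotated, and 38 were expressed. The 7 members held 42.6% (42.3 to 43.0) of the reads assigned to X-linked microRNA genes in replicate 1 and 48.4% (48.1 to 48.7) in replicate 2. Reads with several alignments, such as those of miR-450a-5p, are in neither part of this share. The most abundant X-linked genes outside the cluster were Mirlet7f-2 at 3900 and 3521 CPM, Mir98 at 2984 and 2837 CPM, both of the let-7 family, and Mir652 at 2622 and 2776 CPM. By these counts Mir322 stood above all of them in both libraries, whereas Mir351 ranked between Mirlet7f-2 and Mir98 by mean. Mirlet7f-2 is a numbered copy, beside Mirlet7f-1 on chromosome 13. Reads that fit both copies would be left out, so its place relative to Mir322 and Mir351 is not certain.

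The 12 X-linked genes outside the cluster that averaged at least 100 CPM had log2 ratios of replicate 2 over replicate 1 from -0.17 (Mir224) to 0.17 (Mir501), with a median of -0.06. Mir351 (0.59), Mir322 (0.25) and Mir542 (-0.32) lay outside that range, and Mir503 (0.14) and Mir450b (0.06) inside it. X-linked genes below 100 CPM also passed that range in both directions, such as Mir362 (-0.38, mean of 86.3 CPM) and Mir92-2 (0.58, mean of 20.0 CPM). Summed, the X-linked genes outside the cluster had a ratio of 0.974 (0.963 to 0.986) and the members of 1.23 (1.21 to 1.25).

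**Figure D4:**
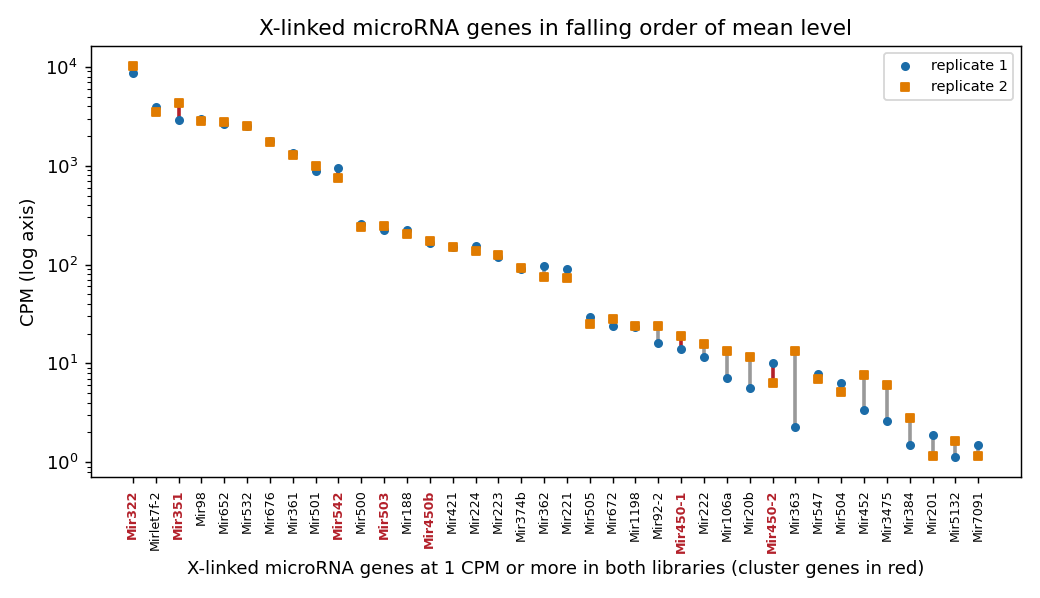
CPM (log axis) of the 38 expressed X-linked microRNA genes in falling order of mean, circles for replicate 1 and squares for replicate 2, joined by a line. Names of cluster genes are red. Mir322 comes first with 8672 and 10347 CPM, and the cluster genes are spread from there down to Mir450-2 with 10.1 and 6.29 CPM.

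Genomic clusters were formed from genes on one strand with neighbours within 10 kb, which gave 15 clusters of 4 or more genes. By reads the Mir322 cluster ranked 3 among them. The Mir379 to Mir3072 (10.4% ± 1.07 of reads, SD, n = 2) and Mir770 to Mir136 (10.2% ± 0.928) segments of the imprinted Dlk1-Meg3 region on chromosome 12 held more, and Mir500 to Mir532 on the X chromosome held 0.401% ± 0.00203. Among the 5 clusters with 3 or more genes at 100 CPM, the log2 ratio of replicate 2 over replicate 1 spanned 0.91 in the Mir322 cluster, from Mir542 to Mir351. It spanned 1.31 and 1.27 in the chromosome 12 segments, which hold 11 and 32 such genes, 0.40 in the Mir17 to Mir92-1 cluster and 0.32 in the Mir500 cluster, which hold 4 each. A span grows with the number of genes, so only the clusters of 4 or 5 such genes are comparable. The Mir322 cluster had the widest span of those 3. The 100 CPM limit leaves out Mir362 of the Mir500 cluster, with a mean of 86.3 CPM and a log2 ratio of -0.38, which would widen the span of that cluster.

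Of 24 other microRNA genes known to act in myoblast growth or differentiation, 23 were expressed, led by Mir206, beside 16.7% of all microRNA genes. Of the 18 that averaged at least 10 CPM, 2 had a ratio above 1 by its interval (Mir214 and Mir181a-1) and 8 below 1, among them Mir206 with a ratio of 0.891 (0.886 to 0.895). Over all 260 genes the shares were 33.1% above and 25.8% below 1. For genes with numbered copies, such as Mir181a-1 and Mir24-2, reads that fit several copies would be left out of these ratios. The median log2 ratio of the 18 regulators was -0.12, beside 0.04 for all 260 genes and 0.20 for the cluster members.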

How the data were processed

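Small RNA libraries from total RNA selected for under 30 nt were sequenced from 2 samples of 1 group. The authors deposited unnormalized read counts for each microRNA gene, in 3 columns per library. They were made on mm10 with GENCODE M21, as the accompanying file descriptions state. The software for alignment and counting was not given in the sources used here. By their order the columns are unstranded, same-strand and opposite-strand counts. The same-strand column was used, and the members had 0 opposite-strand reads. The 4 lines that name no gene held 66.6% and 64.6% of reads and were left out of totals. Counts pool both arms of a hairpin. mm10 is the C57BL/6J assembly, and any loss of reads from CAST/EiJ alleles was not tested.

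CPM, exact binomial intervals and exact conditional intervals of ratios (tested on simulated data) were computed with Python 3.11.15, scipy 1.17.1 and pandas 2.3.3. Intervals of read ratio changes used a normal approximation on the log scale. Folding used RNAfold 2.7.2. Alternative scalings used edgeR 4.0.16 and DESeq2 1.42.0. No test between groups was possible. The members, lists and rules were chosen with earlier results of these data known. Named genes were all members, the fixed seed relatives and markers, the 3 genes nearest in level to Mir322 and Mir351, the 3 highest other X-linked genes and the 3 highest other clusters of 4 or more genes. Exceptions named after their values were seen are Mir224, Mir501, Mir362, Mir92-2, the Mir17 cluster and genes at 0. No genome sequence was used, so shared stretches were sought among the annotated hairpins only. All list entries matched a gene except Mir497a and Mir486b.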

Additional observations from a re-analysis of the deposited data

How the results depend on the processing

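The direction of each member's ratio between the libraries was the same under the 4 alternatives run on it. These kept the members' reads and shifted all log2 ratios by one amount each, from -0.03 to 0.08, too small to turn any member's direction. The order of the 7 members was the same when CPM was divided by hairpin length. It was also the same with Mir450-1 and Mir450-2 summed, but that setting puts Mir450-2 last by rule and cannot test the order of these 2 genes. The members' share of microRNA reads, 1.44%, depends on the denominator: it was 1.94% with unstranded counts, 0.497% of all listed reads and 3.72% without the 10 most abundant genes. The summed ratio of replicate 2 over replicate 1, 1.23, was 1.202 with unstranded counts, 1.21 with TMM factors and 1.30 with all listed reads as the total. With all listed reads as the total, 3 members rather than 2 were higher in replicate 2, the added one being Mir503. Of 49 alternatives on single members, 12 moved the value beyond the replicate or counting spread. Those that left out replicate 1 (7) or replicate 2 (7) could not do so, since with 2 replicates each lies within the SD of their mean. Direction applies only to the alternatives on ratios, and none of them turned it. Unstranded counts gave every member a higher CPM (12782 for Mir322), with a smaller total and the same reads. Leaving out a replicate moved the share between 1.29% and 1.59%, the X-linked share between 42.6% and 48.4%, Mir322 reads per Mir503 read between 39.1 and 42.3, and the seed-group shares of Mir322 and Mir351 between 41.2% and 47.6% and between 40.4% and 50.1%. The last 2 were alternatives chosen after seeing the data. A share of X-linked reads does not depend on the library total, and a ratio between libraries cannot be had from 1 replicate. Mir450-1 and Mir450-2 had at most 81 counted reads in a library, and their counts leave out the reads of miR-450a-5p at any depth.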
